A study of Mus musculus with 9 samples.

Results

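The genes described here are 10 genes of the contractile and actin-binding machinery, Acta2, Actg2, Tagln, Cnn1, Myl9, Tpm1, Tpm2, Cald1, Flna and Synpo, taken by symbol from a mouse RNA-seq table of 55487 genes. The rule that picks them is a list of symbols and uses no measured value, although the list was drawn up with earlier results of these data known. All 10 were present in the table and among the 16353 genes whose counts were high enough to test. The cells were PT-22, a mouse kidney proximal tubule line that carries the inducible vector given in the labels as Pax8-pTRIPZ. Every library, the untreated ones included, had the genotype Pax2-/-,Pax8fl/fl,Rosa-CreERT2, so all lacked Pax2, carried floxed Pax8 and expressed a tamoxifen-activated Cre recombinase, and all grew in medium with 3% serum. Each of the 3 groups had 3 libraries, A, B and C: day 0 without drug, day 6 after 4-hydroxytamoxifen at 1 uM, and day 12 after a further 6 days with doxycycline at 1 ug/ml to switch the vector on. The labels give the exposure to 4-hydroxytamoxifen as 2 days in one place and describe 6 days of depletion in another. No vehicle-treated day 6 library and no day 12 library without doxycycline was analysed here, so time in culture, the drugs and PAX8 cannot be told apart. Whether A, B and C came from cultures grown apart is not stated. The p-values therefore rest on library-to-library spread alone, which may be technical.

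Contractile cells pull on filaments of actin with myosin II, a motor that is switched on when its regulatory light chain is phosphorylated. Tropomyosins lie along the filament, calponin and caldesmon restrain the motor on it, transgelin binds and stabilises it, and filamins and synaptopodin tie filaments into networks and bundles. Many of these genes are transcribed by serum response factor with its cofactors of the myocardin family, and in the kidney smooth muscle actin is a standard marker of myofibroblasts, pericytes and vascular smooth muscle, with low levels in resting tubule cells.

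The 9 libraries held between 56398623 and 86767334 counts, and 21213 to 22139 genes were detected in each. Levels are given as CPM, the count scaled by edgeR's TMM factors to a common library size, in which a single count equalled 0.0115 to 0.0177. Pax8 itself stood at 291 ± 1.7, 405 ± 5.9 and 496 ± 7.8 CPM (SD, n = 3) at days 0, 6 and 12. That count covers the whole gene, may include vector transcripts, and therefore cannot check the deletion. Of 5 tested proximal tubule markers, 2 rose and 3 fell from day 0 to day 6 (edgeR, adjusted p under 0.05). Over all tested genes 33.5% were called higher and 31.4% lower. The 3 that fell were Lrp2, Ggt1 and Cubn, with log2 fold changes of −2.74, −2.39 and −0.54. The water channel gene Aqp1 stood at 119 ± 13, 324 ± 11 and 328 ± 17 CPM and the brush border peptidase gene Anpep at 9.99 ± 0.63, 26.4 ± 1.2 and 21.8 ± 1.5 CPM. The endocytic receptor gene Lrp2 was present at 391 ± 44, 58.7 ± 10 and 71.7 ± 13 CPM, whereas the nuclear receptor gene Hnf4a did not exceed 0.0119 CPM on average in any group and the transporter genes Slc34a1 and Slc22a6 had 0 counts in all 9 libraries. Mitochondrially encoded genes took 6.66 to 7.18% of the counts at days 0 and 6 and 2.10 to 3.96% at day 12, where library B was the highest.

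On TMM-scaled counts, smooth muscle actin, its enteric counterpart, the myosin light chain gene Myl9 and transgelin moved furthest from day 0 among the 10. From day 6 to day 12 the largest log2 fold changes on that scale were those of Cnn1 and Tagln. Between day 0 and day 6, 8 of the 10 rose and 2 (Tpm1 and Synpo) fell at an adjusted p under 0.05, in a comparison in which 64.9% of all tested genes were called, 33.5% higher and 31.4% lower. None of the 10 overlapped between those groups, which held for 68.9% of all genes. Acta2, Actg2, Myl9 and Tagln rose by at least 2-fold, which 9.66% of tested genes did. The median log2 fold change of the 10 genes was 0.37 against 0.02 over all genes tested. Actg2, with 2 counts over all of day 0, passed the filter on low counts through its later libraries. Its place in these counts and this median follows in part from that filter. On log2(TPM + 1) Actg2 rose by 0.65 (limma, adjusted p = 0.000201), a smaller change in size than those of Tagln (1.58) and Synpo (−0.69). Between day 6 and day 12, 6 rose, 2 fell and 2 were not called, against 45.3% of all genes called (22.6% higher and 22.7% lower), and none of the 10 rose by 2-fold, as 2.28% of genes did. The groups were apart for 7 of the 10, against 53.9% of all genes, with Actg2, Tpm1 and Cald1 overlapping. On log2(TPM + 1) with limma, 7 rose and none fell (edgeR on counts called 2 lower, Tpm2 and Flna), and 91.1% of all calls at this step were higher on that scale, against 50% with TMM. The median log2 fold change of the 10 genes was 0.13 with TMM, against 0.01 over all genes. On log2(TPM + 1) it was 0.3, against 0.189 over all genes. Between day 0 and day 12, 7 rose, 2 fell and 1 was not called, against 66.4% of all genes called (34.7% higher and 31.7% lower). On log2(TPM + 1) 8 rose and none fell (limma; Tpm1 and Synpo, lower by TMM, were not called), and 81.5% of all calls were higher, against 52.3% with TMM. Acta2, Actg2, Myl9 and Tagln were at least 2-fold higher at day 12 than at day 0, against 9.43% of genes, and the groups were apart for 9 of the 10, against 69.7%. The limit from the filter on Actg2 applies to these counts as well. The 3 comparisons share libraries and are not independent of each other. In these bulk libraries a change in the number of cells that express a gene and a change in the RNA per cell cannot be told apart.

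**Figure D1:**
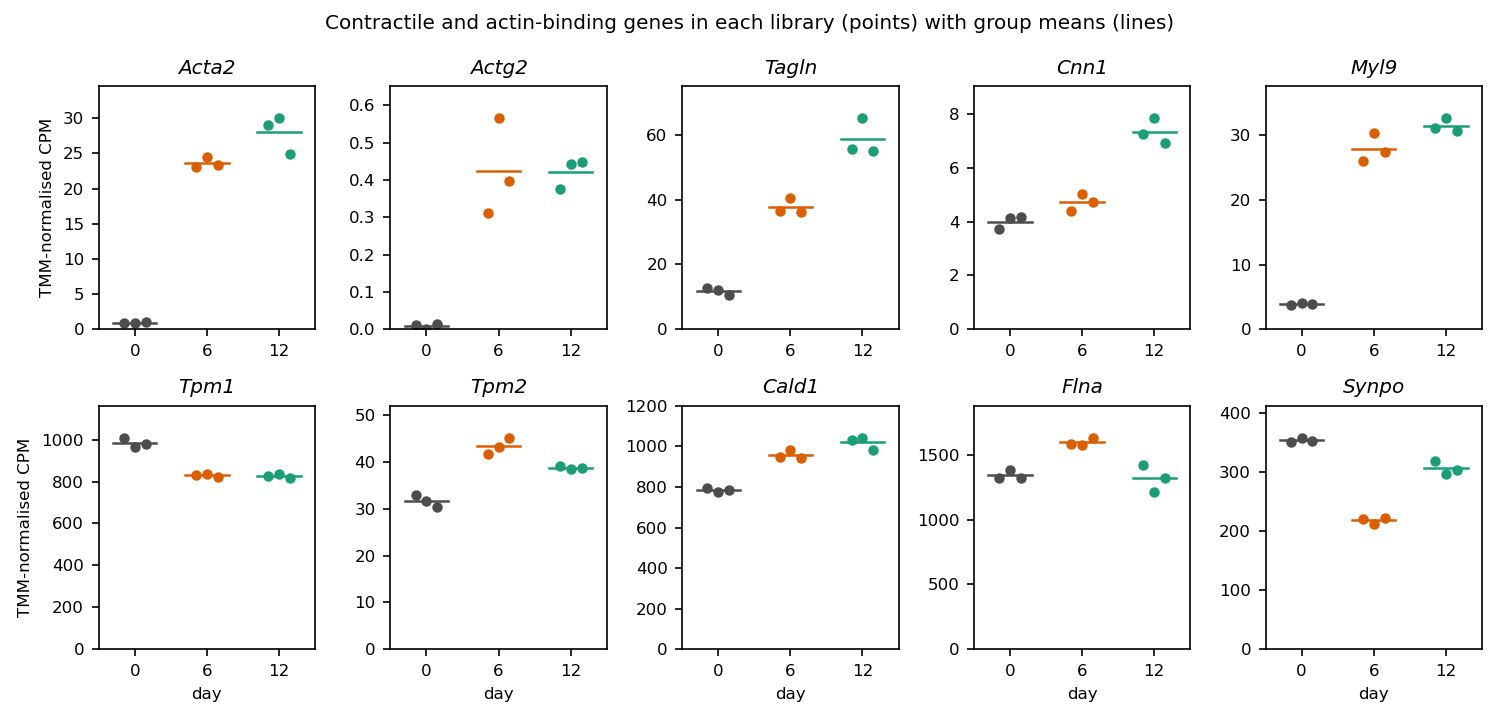
TMM-normalised CPM (y axis, from 0, own scale in each panel) of the 10 genes in each library against day (x axis); points are libraries A, B and C from left to right and lines are group means. Acta2 lies between 0.872 and 0.966 CPM at day 0 and between 23.1 and 30.1 CPM afterwards, while Tpm1, Cald1 and Flna stay between 773 and 1634 CPM in every library.

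Acta2, which encodes smooth muscle alpha-actin, was nearly silent in untreated cells. Its normalised counts were 0.872, 0.927 and 0.966 CPM at day 0 (A, B and C), 23.1, 24.5 and 23.3 CPM at day 6, and 29.0, 30.1 and 24.9 CPM at day 12. The day 0 libraries lay far below the other 6, and the day 12 libraries lay above those of day 6, library C by the smallest margin. Acta2 rose 25.7-fold from day 0 to day 6 (log2 fold change 4.68, SE 0.095, adjusted p = 2.21e-15 in edgeR's quasi-likelihood test). The step from day 6 to day 12 was small by comparison, at a log2 fold change of 0.25 (SE 0.061, adjusted p = 0.00398), and at day 12 Acta2 stood 30.5-fold above day 0 (adjusted p = 2.15e-15). By absolute log2 fold change between day 0 and day 6, 1.17% of tested genes moved further than Acta2.

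Actg2, the enteric smooth muscle gamma-actin gene, was present at a trace. It gave 1, 0 and 1 counts at day 0, 21, 42 and 23 counts at day 6, and 29, 33 and 27 counts at day 12. Every library of days 6 and 12 was above every library of day 0, and the ranges of days 6 and 12 overlapped. On summed counts the ratio of day 6 to day 0 was 46.4, with an exact 95% interval of 12.5 to 389 that covers counting error only (adjusted p = 7.54e-07 in edgeR). The ratio of day 12 to day 6 was 0.97, with an interval of 0.716 to 1.33 (adjusted p = 0.963). Actg2 passed the filter on low counts through its day 6 and day 12 libraries alone, so its place among the genes that rose follows in part from that filter.

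Against the cytoplasmic actins these smooth muscle actins remained minor. On the authors' TPM values, which are per transcript length, Acta2 held a share of 0.0384 ± 0.0064%, 0.85 ± 0.0071% and 0.885 ± 0.081% (SD, 3 libraries) of the summed TPM of the 6 actin genes at days 0, 6 and 12. Actb, the cytoplasmic beta-actin gene, held 47.6 ± 1.4%, 50.9 ± 0.91% and 51.6 ± 0.71%. Actg1, cytoplasmic gamma-actin, held 52.3 ± 1.4%, 48.2 ± 0.91% and 47.4 ± 0.78%. In CPM, Actb rose slightly at both steps (log2 fold changes 0.14 and 0.18, adjusted p = 0.00585 and 0.00228), and Actg1 was called at the second step alone (0.14, adjusted p = 0.00425). Acta1, the skeletal muscle actin gene, stood at 0.18, 0.352 and 0.837 CPM on average and was called higher at both steps (adjusted p = 0.0241 and 0.00366). Its libraries of days 0 and 6 overlapped, and the first call was lost on log2(TPM + 1) (limma, adjusted p = 0.0716). Actc1, the cardiac gene, had too few counts to test.

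Myl9, which encodes the regulatory light chain of smooth muscle and non-muscle myosin II, followed Acta2. It measured 3.68, 4.00 and 3.89 CPM at day 0, 26.0, 30.3 and 27.3 CPM at day 6, and 31.0, 32.7 and 30.6 CPM at day 12. The 3 groups did not overlap, although the highest day 6 library, B, lay close beneath the lowest of day 12. Myl9 rose 7.25-fold by day 6 (log2 fold change 2.86, SE 0.067, adjusted p = 1.05e-14). From day 6 to day 12 its log2 fold change was 0.17 (SE 0.053, adjusted p = 0.0155). That second call was lost when day 6 library A, day 6 library C or day 12 library B was left out (adjusted p = 0.0912, 0.0551 and 0.0629).

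Promoter sequence was read for those of the 10 genes with a window on hand, since serum response factor binds the CArG box. This box is a run of 2 C, then 6 bases that are each A or T, then 2 G. It has the same form on both strands. RefSeq windows (GRCm38.p6) were on hand for 7 of the 10 genes, all but Actg2, Tagln and Synpo. In the 250 bases before the start, a full box was found in 1 of these 7, Myl9, with its first base at -161, and a box with 1 of the 6 central bases being G or C at -99. The Acta2 window held 2 boxes that were each off by 1 base, at -84 and -34, and part of it lies in the first exon of another annotated Acta2 transcript, so 30 bases around each are shown. The windows of Cnn1, Tpm1, Tpm2, Cald1 and Flna held neither form. Over all 32851 windows of the same length, 1.47% held a full box and 8.59% a full box or one off by 1 base. Capitals mark the box in each sequence, written 5′ to 3′ on the gene's strand, and positions count back from the RefSeq start. The Myl9 stretch ends at the last base before the gene's GENCODE start. The windows are at chr2:156775214-156775419 (plus strand) for Myl9, and chr19:34255438-34255467 and chr19:34255388-34255417 (minus strand) for Acta2.
Myl9: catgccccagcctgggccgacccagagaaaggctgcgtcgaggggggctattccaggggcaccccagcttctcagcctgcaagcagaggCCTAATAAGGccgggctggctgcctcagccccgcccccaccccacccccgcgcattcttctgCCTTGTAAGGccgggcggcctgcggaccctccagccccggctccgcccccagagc
Acta2, box at -84: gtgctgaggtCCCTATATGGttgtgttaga
Acta2, box at -34: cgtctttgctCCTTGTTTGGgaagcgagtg

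Full boxes also stood before listed genes that rose, barely moved or were nearly absent. Of the 90 listed genes of the actomyosin and serum response factor lists with a window, 13 (14.4%) held a full box in at least 1 window. That share is per gene, and some genes had more than 1 window, whereas the 1.47% above is per window. The sequences below are shown because they come from genes of the same pathway whose values are given here. Srf, serum response factor itself, carries 2 boxes (chr17:46556225-46556254 and chr17:46556205-46556234, minus strand). Cnn2, a calponin of non-muscle cells, and Lima1, an actin bundler of epithelial cells, carry 1 each (chr10:79988534-79988563, plus strand, and chr15:99820177-99820206, minus strand), as do Actg1 (chr11:120348566-120348595, minus strand) and Acta1 (chr8:123894829-123894858, minus strand).
Srf, box at -82: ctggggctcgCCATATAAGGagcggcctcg
Srf, box at -62: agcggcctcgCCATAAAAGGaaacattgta
Cnn2, box at -56: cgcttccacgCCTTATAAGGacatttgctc
Lima1, box at -47: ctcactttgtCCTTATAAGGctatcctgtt
Actg1, box at -90: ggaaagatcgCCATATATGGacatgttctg
Acta1, box at -73: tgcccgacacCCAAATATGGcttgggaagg

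Tagln, which encodes transgelin, an actin-binding protein abundant in smooth muscle, rose at both steps. It stood at 12.7, 12.2 and 10.6 CPM at day 0, 36.6, 40.4 and 36.2 CPM at day 6, and 55.7, 65.2 and 55.0 CPM at day 12. No 2 groups overlapped. The rise to day 6 was 3.18-fold (log2 fold change 1.67, SE 0.076, adjusted p = 3.07e-11) and the rise from day 6 to day 12 was 1.55-fold (0.64, SE 0.068, adjusted p = 2.87e-06), which brought Tagln to 4.94-fold above day 0. Antisense to Tagln, the noncoding gene Gm48529 shares 1241 bases (62.4%) of its exon sequence and Pcsk7 shares 108 bases. The strand setting of the counting is not given in the sources used here, so reads of these genes cannot be told apart with certainty. Gm48529 was credited with 0.661 to 1.33 CPM and Pcsk7 with 21.2 to 24.9 CPM on average per group.

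Cnn1, the smooth muscle calponin gene, rose mainly at the second step. It measured 3.71, 4.12 and 4.17 CPM at day 0, 4.40, 5.02 and 4.72 CPM at day 6, and 7.26, 7.86 and 6.91 CPM at day 12. The day 6 libraries were above those of day 0 by little, and the day 12 libraries were clearly above both. The change to day 6 was 0.24 on the log2 scale (SE 0.087, adjusted p = 0.0242), a call lost with DESeq2 (adjusted p = 0.0587), without day 0 library A (0.107) and without day 6 library B (0.134). From day 6 to day 12 Cnn1 rose 1.56-fold (0.64, SE 0.082, adjusted p = 1.73e-05). Its relatives moved otherwise: Cnn2 stood at 89.8 ± 5.7, 183 ± 5.4 and 173 ± 7.8 CPM, a 2.04-fold rise at the first step (adjusted p = 1.74e-11) and no call at the second (adjusted p = 0.15), and Cnn3 was not called in any comparison (adjusted p from 0.415 to 0.863). Tagln2, the transgelin of non-muscle cells, fell at the first step while Tagln rose (log2 fold change −0.40, adjusted p = 4.75e-08).

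**Figure D2:**
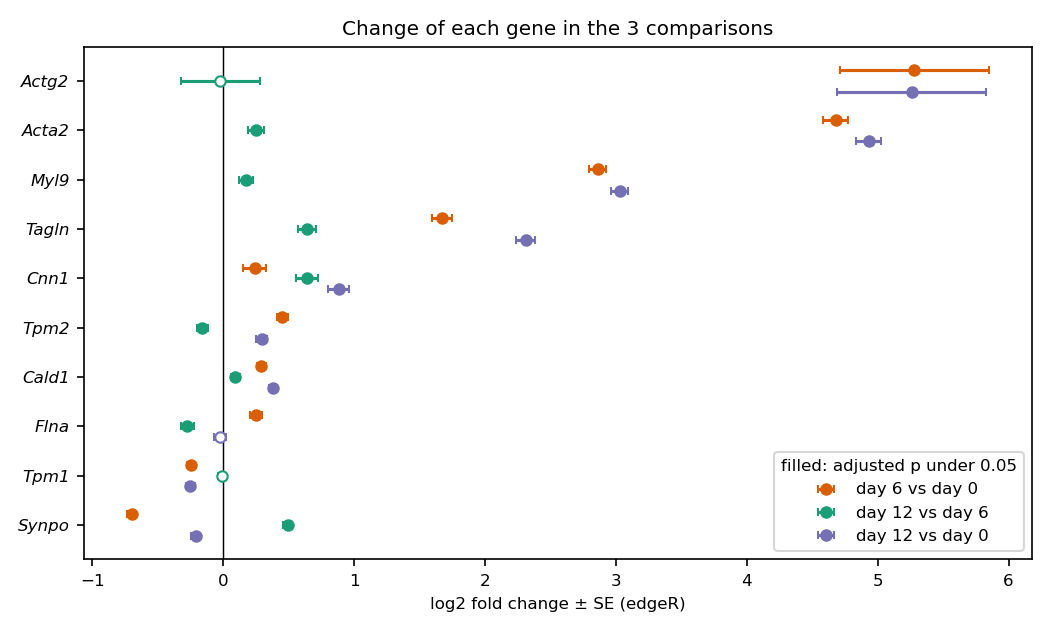
Log2 fold change (x axis) with its SE for each gene (y axis) in the 3 comparisons, from 1 edgeR fit of all 9 libraries; filled points have an adjusted p under 0.05. Actg2, Acta2, Myl9 and Tagln stand at 1.67 or more from day 0 to day 6, and the other 6 genes between −0.70 and 0.45.

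The tropomyosins, which govern access of myosin to the filament, and caldesmon changed by small amounts. Tpm1 stood at 1010, 963 and 978 CPM at day 0, 832, 837 and 823 CPM at day 6, and 825, 837 and 818 CPM at day 12. All day 0 libraries were the highest, and those of days 6 and 12 overlapped. Tpm1 fell by 0.24 on the log2 scale to day 6 (SE 0.031, adjusted p = 4.64e-06). Tpm2 gave 33.0, 31.6 and 30.4 CPM, then 41.8, 43.1 and 45.2 CPM, then 39.3, 38.5 and 38.7 CPM, with day 6 the highest and no overlap. It rose by 0.45 on the log2 scale to day 6 (SE 0.04, adjusted p = 8.42e-08). From day 6 to day 12 Tpm2 fell by 0.16 (SE 0.04, adjusted p = 0.00424) on TMM-scaled counts, whereas on the TPM scale its change was 0.06 in the other direction and not called (limma, adjusted p = 0.259).

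Cald1, the caldesmon gene, read 793, 773 and 786 CPM at day 0, 948, 984 and 943 CPM at day 6, and 1033, 1044 and 983 CPM at day 12. Day 0 was lowest in every library, and day 12 library C overlapped the day 6 range. The log2 fold change was 0.29 to day 6 (SE 0.034, adjusted p = 1.87e-06) and 0.09 from there to day 12 (SE 0.034, adjusted p = 0.041). The second call was lost with RLE scaling (adjusted p = 0.077), when only the 2 groups were fitted (0.0748), and without day 0 library B, day 6 library A or C, or day 12 library A or B (0.0516 to 0.134). Tpm3 and Tpm4, the tropomyosin genes expressed broadly outside muscle, stood at 623, 511 and 499 CPM and at 681, 664 and 608 CPM on average, and Tpm3 fell at the first step (log2 fold change −0.28, adjusted p = 2.9e-06). By TPM, Tpm1 made up 47.9, 45.7 and 47.3% of the summed level of the 4 tropomyosin genes at days 0, 6 and 12, and Tpm2 2.08, 3.03 and 2.83%. The table gives 1 value per gene, which sums the muscle and non-muscle isoforms of Tpm1 and Cald1, with 21 and 18 annotated transcripts.

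Flna and Synpo, which link filaments to each other, moved in opposite directions at each step. Flna, the gene of the actin crosslinker filamin A, measured 1323, 1387 and 1322 CPM at day 0, 1582, 1579 and 1634 CPM at day 6, and 1424, 1217 and 1322 CPM at day 12. Day 6 was highest, and days 0 and 12 overlapped, with day 12 library A above and library B below all of day 0. Flna rose by 0.25 on the log2 scale to day 6 (SE 0.048, adjusted p = 0.000265) and then fell by 0.27 (SE 0.048, adjusted p = 0.00026). On the TPM scale the second change was a log2 difference of −0.11 and was not called (limma, adjusted p = 0.15).

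Synpo encodes synaptopodin, an actin-bundling protein best known from podocyte foot processes. It gave 350, 358 and 353 CPM at day 0, 220, 212 and 222 CPM at day 6, and 318, 297 and 302 CPM at day 12. Day 6 was the lowest and day 0 the highest, without overlap. Synpo fell 1.63-fold to day 6 (log2 fold change −0.70, SE 0.033, adjusted p = 5.02e-11) and rose 1.41-fold from day 6 to day 12 (0.49, SE 0.033, adjusted p = 2.73e-08). Among other podocyte genes, Nphs1 (nephrin) did not exceed 0.671 CPM on average in any group, and Ptpro had 0 counts in all groups. The summed level of the 7 podocyte markers was 100 to 105, 77.3 to 80.9 and 88.7 to 89.7 CPM at days 0, 6 and 12, and its part in the Synpo values was not tested.

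Set directly against day 0 on TMM-scaled counts, the day 12 libraries differed most in Actg2, Acta2, Myl9 and Tagln, and least in Flna. Actg2, with 2 counts over all of day 0, passed the filter through its later libraries. On log2(TPM + 1) Actg2 was higher by 0.71 and Cnn1 by 0.93 (limma, adjusted p = 9.64e-05 and 8.65e-06). Myl9 stood 8.18-fold above day 0 (adjusted p = 8.88e-15) and Cnn1 1.84-fold (adjusted p = 1.96e-07). Cald1 and Tpm2 were higher by 0.38 and 0.29 on the log2 scale (adjusted p = 9.98e-08 and 1.17e-05). For Flna the difference was −0.02 (adjusted p = 0.67) on TMM-scaled counts and 0.25 (limma, adjusted p = 0.00517) on TPM. Tpm1 was lower by 0.25 (adjusted p = 3.72e-06) and Synpo by 0.21 (adjusted p = 4.71e-05) on TMM-scaled counts, while on TPM both differences were below 0.01 and above 0 (adjusted p = 0.93 and 0.922). On TPM the median of all tested genes itself moved by 0.189 on the log2 scale from day 6 to day 12 and by 0.215 from day 0 to day 12, against 0.008 and 0.025 with TMM. Relative to those medians Tpm1 and Synpo differed from day 0 by −0.21 each on TPM and by −0.28 and −0.24 with TMM.

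**Figure D3:**
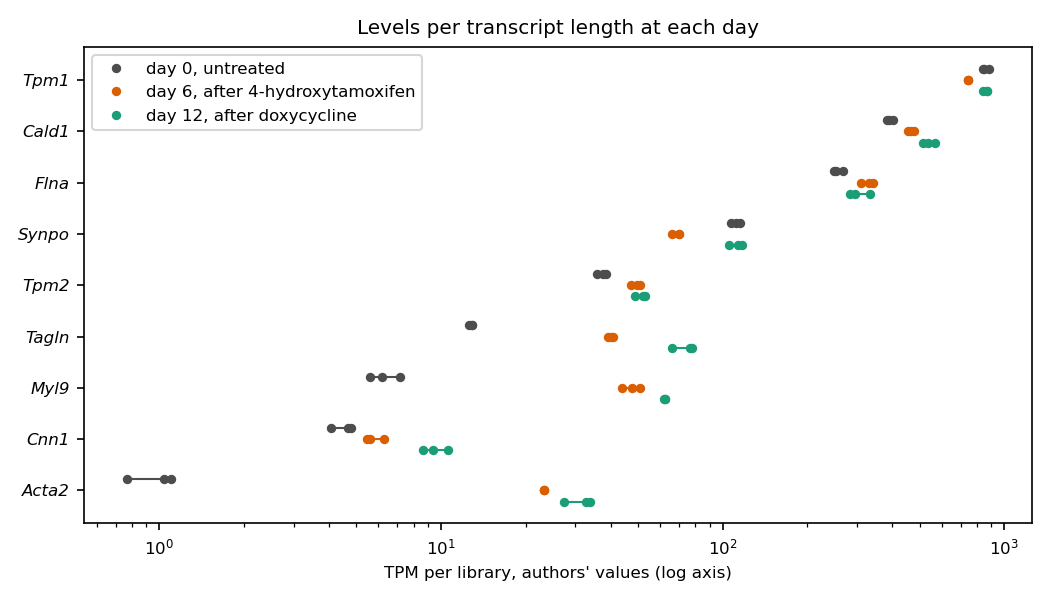
Authors' TPM (x axis, log scale) of 9 of the 10 genes in each library at days 0, 6 and 12; points are libraries and lines span each group. Actg2, with mean values below 0.7 TPM, is not drawn; Acta2 moves from a mean of 0.97 to 23.2 and 31.3 TPM while Tpm1 stays between 740 and 882 TPM.

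The order of the genes by TPM, which allows levels to be set against each other, kept the same top 4 at every day. Tpm1 led with mean values of 858, 742 and 860 TPM at days 0, 6 and 12, followed by Cald1 (392, 466 and 540 TPM), Flna (256, 328 and 304 TPM) and Synpo (111, 68.8 and 112 TPM). Below them the ranks changed. At day 0 the order was Tpm2 (37.3 TPM), Tagln (12.8), Myl9 (6.31), Cnn1 (4.52), Acta2 (0.97) and Actg2 (0.02), and no neighbours overlapped between libraries. By day 6 Tpm2 (49.2 TPM) and Myl9 (47.4 TPM) overlapped and stood above Tagln (40.1 TPM) and Acta2 (23.2 TPM), which had passed Cnn1 (5.77 TPM). At day 12 Tagln (73.6 TPM) came before Myl9 (62.2 TPM) and Tpm2 (51.4 TPM), then Acta2 (31.3 TPM) and Cnn1 (9.55 TPM), with Actg2 last in all groups.

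Among the wider smooth muscle contractile genes the direction was mixed, with the kinase that activates myosin falling as its light chain gene rose. Of 16 tested genes on that list, which includes 5 of the 10, 11 rose and 3 fell between day 0 and day 6 (median log2 fold change 1.27), and 7 rose and 2 fell between day 6 and day 12 (median 0.17). Actg2, Synpo2 and Aoc3 passed the filter through their day 6 and day 12 libraries, with 2, 23 and 12 counts over all of day 0, so the first count and median rest in part on that filter. On log2(TPM + 1) 9 rose and 2 fell of 13 tested at the first step (limma, median 0.61). With TMM, 33.5% of all tested genes were called higher and 31.4% lower at the first step. At the second step the shares were 22.6% and 22.7%. These shares also stand beside the counts of the lists that follow. Smtn, the smoothelin gene, stood at 190 ± 1.1, 50.3 ± 1.2 and 160 ± 9.3 CPM at days 0, 6 and 12, a log2 fold change of −1.92 (adjusted p = 2.65e-15) and then 1.67 (adjusted p = 2.44e-13). Mylk, the myosin light chain kinase gene, went from 110 ± 5.7 to 49.0 ± 3 and 87.3 ± 3.5 CPM, with log2 fold changes of −1.17 (adjusted p = 7.45e-12) and 0.84 (adjusted p = 4.49e-09). Des, the muscle intermediate filament gene, measured 1.57 ± 0.24, 5.22 ± 0.67 and 3.63 ± 0.087 CPM and rose at the first step (adjusted p = 7.43e-09). Lmod1, a leiomodin gene that nucleates actin in smooth muscle, rose as well, to a low level, from 0.755 to 2.54 CPM (adjusted p = 4.57e-08).

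Myosin II subunits and their regulators did not move one way on TMM-scaled counts. Of 16 tested, 6 rose and 8 fell to day 6 (median −0.08), and on log2(TPM + 1) 5 rose and 6 fell (limma). From day 6 to day 12, 5 rose and 5 fell on TMM-scaled counts, whereas on log2(TPM + 1) 10 rose and 1 fell (limma). Ppp1r12b, a targeting subunit of the phosphatase that removes phosphate from the light chain, rose between 18.9 ± 0.48 CPM at day 0 and 93.9 ± 2.3 CPM at day 6 (by 2.32 on the log2 scale, adjusted p = 8.45e-16) and then fell to 58.3 ± 3.3 CPM at day 12 (−0.69, adjusted p = 4.38e-09). Ppp1r12a, a related targeting subunit, and Rock2, a kinase that inhibits the phosphatase, fell at the first step, from 190 to 149 CPM and from 246 to 170 CPM on average (adjusted p = 4.88e-08 and 1.66e-09). Myh10, a non-muscle myosin heavy chain gene, rose from 359 to 464 CPM (adjusted p = 3.73e-07), and Myh11, the smooth muscle heavy chain gene, averaged at most 0.0925 CPM and was not tested.

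Crosslinkers and linkers to adhesions, the list that holds Flna and Synpo, rose more often than they fell at the first step. There were 19 up and 4 down of 27 tested (median 0.25), against 33.5% higher and 31.4% lower over all tested genes. Synpo2 and Lcp1, with 23 and 29 counts over all of day 0, passed the filter largely through later libraries. That count and median rest in part on the filter. On log2(TPM + 1) 18 rose and 4 fell of 26 tested (limma, median 0.305). Lima1 rose by 1.80 on the log2 scale, with 161 ± 2.3 CPM before and 558 ± 11 CPM after (adjusted p = 9.92e-16), while Zyx, a focal adhesion protein gene, fell from 218 ± 1.1 to 127 ± 1 CPM (−0.78, adjusted p = 1.24e-12), and so did Tns1, a tensin gene, from 712 ± 25 to 350 ± 8.1 CPM (−1.02, adjusted p = 2.96e-11). At the second step 4 rose and 10 fell on TMM-scaled counts, and on TPM 14 rose and 4 fell of 26 tested. Genes of actin turnover went both ways, with 7 up and 8 down of 23 at the first step (median −0.07), and 7 up and 3 down of 21 on log2(TPM + 1) (limma, median 0.05). Tmsb4x, which encodes the monomer-binding peptide thymosin beta-4, was the gene of that list with the smallest adjusted p, at 29.9 ± 2.4, 173 ± 3.2 and 171 ± 5.7 CPM (log2 fold change 2.53, adjusted p = 1.15e-15, to day 6).

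**Figure D4:**
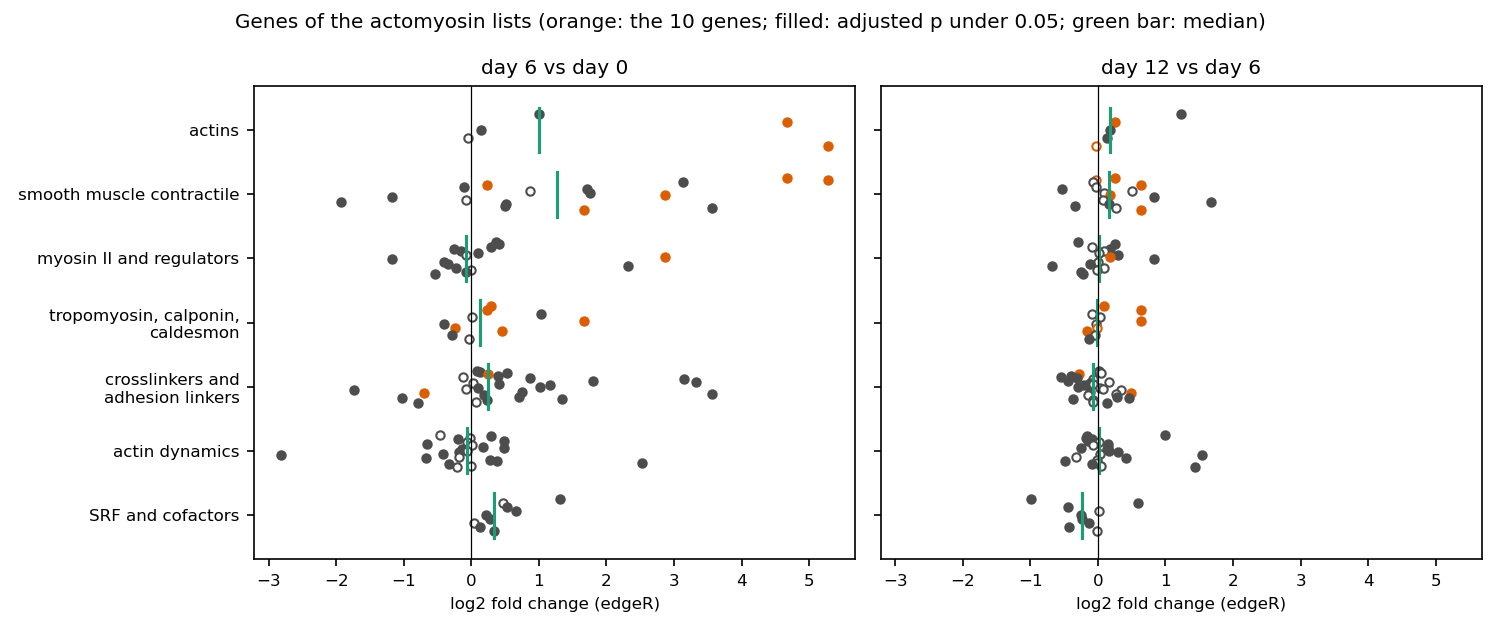
Log2 fold change from edgeR (x axis) of every tested gene on 7 fixed lists of the actomyosin system (y axis), from day 0 to day 6 (left) and day 6 to day 12 (right); points are genes, filled where the adjusted p is under 0.05, orange for the 10 genes, and green bars are list medians. At the first step the actin and smooth muscle lists have medians of 1.00 (which is Acta1, below 1 CPM) and 1.27, and the other 5 lie between −0.08 and 0.34; on log2(TPM + 1) the actin and smooth muscle medians are 0.22 and 0.61, against 0.31 for crosslinkers and 0.33 for the serum response factor list.

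Of 9 tested genes on the list of serum response factor, its cofactors and their partners, 7 rose at the first step, while Mrtfb and Fhl1 were not called (edgeR, median 0.34). On log2(TPM + 1) 5 rose and 0 fell of 8 tested (limma, median 0.33). There Scai lost its call (adjusted p = 0.23), and Abra, at most 0.477 CPM on average in any group, was not tested. Srf stood at 36.1 ± 1.3, 45.6 ± 1.4 and 45.1 ± 0.5 CPM, a rise of 0.34 on the log2 scale to day 6 (adjusted p = 8.78e-07) with no call afterwards (adjusted p = 0.741). Mrtfa, a cofactor gene, gave 109 ± 0.8, 132 ± 1.8 and 112 ± 3 CPM (0.28, adjusted p = 4.22e-07, then −0.24, adjusted p = 9.96e-06), Mrtfb was not called at the first step (adjusted p = 0.541), and Myocd, the cofactor specific to heart and smooth muscle, had 0 counts at days 0 and 6. Fhl2 and Filip1l, listed as targets or partners, rose to day 6 by 0.52 and 0.67 (adjusted p = 2.65e-09 and 7.27e-11). At the second step 1 of the 9 rose and 6 fell on TMM-scaled counts, and on TPM 3 rose and 1 fell of 8 tested.

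Markers of other cells that carry these genes were mostly low, and some were higher at days 6 and 12 than at day 0. All 5 tested markers of smooth muscle and pericytes, of 10 listed, rose to day 6. From day 6 to day 12, 1 rose and 3 fell with edgeR, and 1 rose and 2 fell on log2(TPM + 1) with limma. The summed level of the 10 was 11.1 to 12.9 CPM at day 0, 28.4 to 29.1 CPM at day 6 and 20.8 to 21.5 CPM at day 12. The largest part of that sum is Cspg4, at 9.33, 16 and 9.48 CPM. Cspg4 was not called between days 0 and 12 (edgeR, adjusted p = 0.764). Pdgfrb, a pericyte and fibroblast receptor gene, went from 0.0762 ± 0.027 to 2.45 ± 0.26 and 1.52 ± 0.29 CPM, and Kcnj8 and Abcc9 had 0 counts in all 9 libraries. With 16 counts over all of day 0, Pdgfrb passed the filter through its later libraries. Its place among the 5 that rose to day 6 follows in part from the filter. The 8 fibroblast markers summed to 7.92 to 8.34, 4.91 to 5.42 and 10.3 to 11.9 CPM, with Thy1 at 0 counts throughout and Pdgfra at 0 at day 0. The dip of that sum at day 6 is Dcn, the decorin gene, at 4.92, 0.442 and 5.08 CPM. Of 4 tested fibroblast markers 2 rose and 1 fell to day 6. The risen collagen genes Col3a1 and Col1a2 stayed low, at 0.00879 and 0.104 CPM at day 0 and 0.756 and 0.257 CPM at day 6. Col3a1, with 2 counts over all of day 0, passed the filter through its later libraries. Its place in that count follows in part from the filter. The Col1a2 libraries of days 0 and 6 overlapped. On log2(TPM + 1) 0 rose and 1 fell of 2 tested (limma). Endothelial markers summed to at most 0.496 CPM in any library, and the 6 immune markers to between 13.4 and 18.6 CPM. Of 5 tested epithelial markers, 4 fell and 1 rose to day 6, and the sum of the 7 listed went from 834 to 864 CPM at day 0 to between 131 and 135 CPM at day 6 and between 359 and 367 CPM at day 12. That sum is nearly all Cdh16, a kidney cadherin gene, at 831, 122 and 349 CPM. The keratin gene Krt8 was the one that rose (1.23, 2.04 and 2.55 CPM), and Epcam stood at 12.9 ± 0.77, 6.42 ± 0.39 and 8.58 ± 0.9 CPM. The part of any of these in the values of the 10 genes was not tested.

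The genes whose log2 CPM across the 9 libraries ran closest to each of the 10 were sought among the tested genes of at least 5 CPM in a group, by Pearson's r. These libraries fall into 3 groups, so such r values mostly describe the 3 group means. Acta2 ran closest to Inhbb (r = 0.9993), the inhibin beta B subunit gene, to Myl9 (0.9992) and to Fbln7 (0.9991), a fibulin gene. For Myl9 the nearest were Tgm2 (0.9994), the transglutaminase 2 gene, Acta2, and Igfbp4 (0.9992). Tagln was nearest to Nuak2 (0.9975), a kinase gene, and Cnn1 to Fmo2 (0.9961). Flna had Chd4 (0.994), a chromatin remodeller gene, as its nearest, and Synpo had Hyou1 (0.9982), an endoplasmic reticulum chaperone gene, and Havcr1 (0.9957), the kidney injury molecule gene. The likeness is of shape and not of size, since Havcr1 changed by −5.70 and then 4.72 on the log2 scale where Synpo changed by −0.70 and 0.49.

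None of the stretches of 75 bases in the annotated transcripts of the 10 genes occurred, on the same strand, in a transcript of another gene. How reads were assigned was not tested by this. On GRCm38 (GENCODE M21) Acta2 spans chr19:34241090-34255590, Myl9 chr2:156775420-156781658, Tagln chr9:45929619-45936058 and Cnn1 chr9:22099216-22109630. Tpm1 lies at chr9:67022590-67049406, Tpm2 at chr4:43514711-43523765, Cald1 at chr6:34598500-34775473, Flna at chrX:74223461-74249820, Actg2 at chr6:83512905-83536265 and Synpo at chr18:60593973-60660142.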

How the data were processed

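RNA was measured by polyA-selected RNA-seq in 9 libraries of PT-22 cells. The authors deposited 1 table of counts and 1 of TPM values, per the file headers. Per the submitters' processing notes the tools were cutadapt 2.3, FastQC 0.11.8, STAR 2.7.8a and RSEM 1.3.3 with GRCm38. The counts deposited were whole numbers. Rows of 4 transgenes (0.00204 to 0.00284% of counts) were left out. From the counts, edgeR 4.0.16 (R 4.3.3; TMM, filterByExpr by group, 1 quasi-likelihood fit of all 9 libraries with 6 residual degrees of freedom) gave log2 fold changes, with p-values adjusted by Benjamini-Hochberg over 16353 genes. A fold change's SE is its size divided by the root of F. The TPM values deposited by the authors gave levels between genes, and limma 3.58.1 on log2(TPM + 1), as well as DESeq2 1.42.0, served as alternatives. Scripts were tested on simulated counts. Named beside the 10 genes are Pax8, preset markers, all actins, tropomyosin relatives and serum response factor genes, the smallest adjusted p values of each list, and the nearest patterns. Gm48529, Pcsk7, Slc34a1, Slc22a6, Aoc3, Synpo2, Lcp1, Ptpro, Kcnj8, Abcc9 and Thy1 are named outside that rule, after their values were seen. The 10 genes and the lists were chosen with earlier results of these data known. Promoter windows are from RefSeq (GRCm38.p6), and 55141 of the gene IDs were found in GENCODE M21.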

Additional observations from a re-analysis of the deposited data

How the results depend on the processing

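Of 570 values of the 10 genes recomputed under 19 alternatives, 526 kept their direction and their side of the threshold, 17 lost their call and 27 changed sign. The number of genes called ranged from 9 to 10 (day 0 to day 6) and 6 to 8 (day 6 to day 12) when 1 library was left out, and was 9 (day 0 to day 12) in each such fit. Under the other settings the number called in either direction stayed within 1.5 times, but on TPM the number that fell went from 2 to 0 from day 6 to day 12 and from day 0 to day 12. From day 6 to day 12 the log2 fold change turned positive for Actg2 and Tpm1 with upper-quartile scaling (0.0172 and 0.0318), and for Actg2, Tpm1 and Tpm2 with log2(TPM + 1), with or without a filter (0.0594, 0.212 and 0.0612), and with log2(TPM + 0.1) (0.144, 0.213 and 0.0623). The Tpm1 value on TPM was called (adjusted p = 0.00036 in limma). From day 0 to day 12 Flna turned positive with upper-quartile scaling (0.00966), and Tpm1, Flna and Synpo did on log2(TPM + 1), with or without a filter (0.00343, 0.247 and 0.00566), and on log2(TPM + 0.1) (0.00343, 0.248 and 0.0057). With 1 library left out, Actg2 from day 6 to day 12 ranged from −0.206 to 0.26, positive without day 6 library B (0.26) or day 12 library A (0.061). Tpm1 in that comparison ranged from −0.016 to 0.00133, positive without day 6 library B (0.00133) or day 12 library C (0.00121). Flna from day 0 to day 12 ranged from −0.0801 to 0.0324, positive without day 12 library B. Called genes that were higher made up 50% from day 6 to day 12 with TMM, 60.5% with upper-quartile scaling and 91.1% on log2(TPM + 1), and 52.3% against 81.5% from day 0 to day 12; the cause was not tested. Correlations of deviations from the group means ran from −0.093 to 0.13 between libraries of the same letter (A, B or C). Between different letters they ran from −0.15 to 0.14. With 3 libraries a group these values cannot show whether the letters mark shared cultures, and the main fit did not pair them. With the letter as a replicate block, all 10 genes were called from day 0 to day 6, Actg2 from day 6 to day 12 stood at 0.00372 (adjusted p = 0.994), Cald1 in that comparison lost its call (adjusted p = 0.0531), and 10485, 7221 and 10743 of all genes were called in the 3 comparisons. Depth limits Actg2, at 2 counts in all of day 0, more than the other 9 genes.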
